A study of Mus musculus with 8 samples.

Results

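The transcript levels of the tumour suppressor p53 and of 9 genes that it is known to switch on were compared between control AML12 cells and AML12 cells exposed to Opti-ELF-WMF. The 10 genes were taken by symbol (Trp53, Cdkn1a, Mdm2, Ccng1, Bax, Bbc3, Gadd45a, Sesn1, Phlda3 and Zmat3) from 55401 annotated genes, as a readout of DNA damage signalling. None of the 10 genes differed at an adjusted p under 0.05 (limma), as did 0% of the 12122 genes tested. Trp53 itself was 7.9% higher on average in the exposed dishes, with no overlap between the 2 conditions, a pattern that 8.01% of all genes tested shared. Cdkn1a and Mdm2, the best known targets of p53, had mean TPM within 1% of those in control dishes, and under 3 other scalings of the libraries their differences were -0.027 to -0.020 and -0.044 to -0.036 on the log2 scale.

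AML12 is a hepatocyte line derived from mice that carry a human TGF-alpha transgene. RNA was sequenced from 4 control dishes and from 4 dishes kept for 1 h under Opti-ELF-WMF, a pulsed weak magnetic field with a peak of 100 mG, pulses of 4 ms and frequencies that stepped from 1 to 8 Hz. By the study's general methods, control and exposed cells were prepared together and shared a batch. Whether all of these dishes shared the same batch is not stated. The control dishes stood in another incubator of the same model with the stimulator switched off, so that the field and the incubator cannot be told apart. No dish received a DNA-damaging agent, so the size of a p53 response in these cells was not measured here.

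The values are TPM, a length-corrected measure of transcript abundance in which each library is scaled to the same total. TPM keeps no sequencing depth, so the depth of each dish is unknown and no counting error can be given. Each dish detected 19386 to 20114 genes above 0. Of 10 hepatocyte markers, 9 reached 1 TPM in at least 4 dishes, while Cyp2e1, an enzyme of the mature liver, was listed at 0 in all 8. The summed TPM of the hepatocyte markers was 4829 to 5042 in control and 5128 to 5370 in exposed dishes, and that of 5 bile duct markers was 1583 to 1683 and 1606 to 1724. Krt8 and Krt18, keratins of simple epithelia, made up most of the hepatocyte sum and were higher in all exposed dishes, with means of 2248 and 2361 TPM for Krt8 and 1905 and 2029 TPM for Krt18. The secreted liver proteins Alb (55.09 and 49.71 TPM), Ttr (358.3 and 348.4 TPM), Apoa1 (4.543 and 3.772 TPM) and Afp (1.032 and 0.92 TPM) had lower means in exposed dishes, each with overlap between conditions. The marker sums of fibroblasts (0.56 to 1.88 and 0.42 to 1.34), leukocytes (1.79 to 2.55 and 1.69 to 2.08) and endothelial cells (0.01 to 0.05 and 0.03 to 0.13) were near 0 by comparison. Of the markers in these lists, Lum, Adgre1 and Cdh5 were at 0 in every dish. The leukocyte marker Cd68 had 1.05 to 2.21 TPM, and it alone in these lists reached 1 TPM in at least 4 dishes. Genes of the mitochondrial genome held 8.69% to 9.42% of all TPM in control dishes and 5.99% to 7.69% in exposed dishes. Over all genes tested the median difference was 0.026 on the log2 scale, and after rescaling without mitochondrial genes it was -0.00179.

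p53 is a transcription factor that cells hold at a low protein level through Mdm2, a ubiquitin ligase that marks it for degradation. DNA double-strand breaks and stalled replication activate the kinases ATM and ATR, which together with CHK2 and CHK1 release p53 from Mdm2. The stabilised protein then binds its response elements and raises the transcripts of genes for cell cycle arrest, repair and cell death, within hours of damage. Regulation of p53 is therefore mainly a matter of its protein, which the RNA does not show, whereas the levels of its target transcripts are the usual RNA readout of its activity.

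Promoter sequence close to the transcription starts is shown first, because p53 acts on its targets by binding DNA. p53 binds as a tetramer to a pair of decamers. RefSeq promoter windows on GRCm38, from 250 bases before to 50 bases after a transcription start, were found for 9 of the 10 genes, and there was none for Zmat3. A match to the p53 consensus decamer, which is its own reverse complement and so reads alike on both strands, was present in 7 of these 9 genes (Trp53, Cdkn1a, Mdm2, Ccng1, Bax, Gadd45a and Sesn1), against 9.55% of 27025 genes with a window. In the list of other known p53 targets described further on, 8 of 32 genes with a window had one. An exact pair of decamers, with a gap of up to 13 bases, was present in 1 of the 9 genes (Cdkn1a, with a gap of 12 bases). It was present in 0 of the 32 other targets. Of all windows, 0.0731% held such a pair, a share counted per window and not per gene. A pair with no gap and at most 1 mismatch over its 20 bases was present in Cdkn1a and Ccng1, against 0.107% of all genes. The allowance of 1 mismatch was chosen after the sequences were seen. Of the other known targets, 1 of 32, Gtse1, had such a pair. A match describes these letters and does not show that p53 was bound or that it acts there. DNA outside these windows was not searched.

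The upstream window of Cdkn1a is given whole, with the 20-base pair without a gap, which has 1 mismatch, in capitals. The window lies on the plus strand at chr17:29090729-29090978. The pair at chr17:29090928-29090947 starts 51 bases before the more upstream of the 2 annotated starts and 2841 bases before the downstream start. The first decamer of the exact pair with a gap, at chr17:29090906-29090915, is left in lower case.
Cdkn1a upstream window: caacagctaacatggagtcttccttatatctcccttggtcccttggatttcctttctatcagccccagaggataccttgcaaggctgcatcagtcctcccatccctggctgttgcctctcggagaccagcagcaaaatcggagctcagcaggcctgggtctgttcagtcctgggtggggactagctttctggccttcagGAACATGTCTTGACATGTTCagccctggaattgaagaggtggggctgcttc
The matches of the other members are shown in 30 bases each, 5′ to 3′ on the strand of the gene, so that they can be set beside that of Cdkn1a. Capitals mark the pair without a gap in Ccng1 (chr11:40755457-40755486, minus strand), which has 1 mismatch. In the others they mark the single decamer, in Mdm2 (chr10:117710925-117710954, minus strand), Bax (chr7:45467080-45467109, minus strand), Gadd45a (chr6:67037428-67037457, minus strand), Sesn1 (chr10:41887256-41887285, plus strand) and Trp53 (chr11:69580274-69580303, plus strand).
Ccng1: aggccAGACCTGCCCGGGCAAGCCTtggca
Mdm2: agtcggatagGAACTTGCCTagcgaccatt
Bax: agcatatcccAGGCAAGCTTtgaacttgcg
Gadd45a: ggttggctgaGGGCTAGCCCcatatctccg
Sesn1: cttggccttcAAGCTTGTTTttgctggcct
Trp53: acccacggaaGGACTTGCCCttacttgtta
The Gadd45a match lies inside the annotated bounds of the gene, which reach 67037457. The Sesn1 match lies inside its gene, before the start at 41887439, and the window of the start at 41810574 held none. The windows of Bbc3 and Phlda3 held no match, which says only that these letters are not in those windows.

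All 10 genes were expressed in both conditions, and all 10 passed the limit of 1 TPM in at least 4 dishes that was set for testing. Over the 8 dishes, Bax had the highest mean level of 398.4 TPM. It was followed by Ccng1 (339.9 TPM), Trp53 (247 TPM), Mdm2 (184.8 TPM), Cdkn1a (159.9 TPM) and Phlda3 (137 TPM), and the ranges of neighbouring genes in this order did not overlap. Gadd45a (30.26 TPM), Bbc3 (29.58 TPM) and Zmat3 (27.89 TPM) followed, and in this order Gadd45a and Bbc3, as well as Bbc3 and Zmat3, overlapped in range. Sesn1 was the least abundant with 3.966 TPM. Cdkn1a, Mdm2, Ccng1, Bax and Phlda3 thus exceeded 100 TPM in every control dish.

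**Figure D1:**
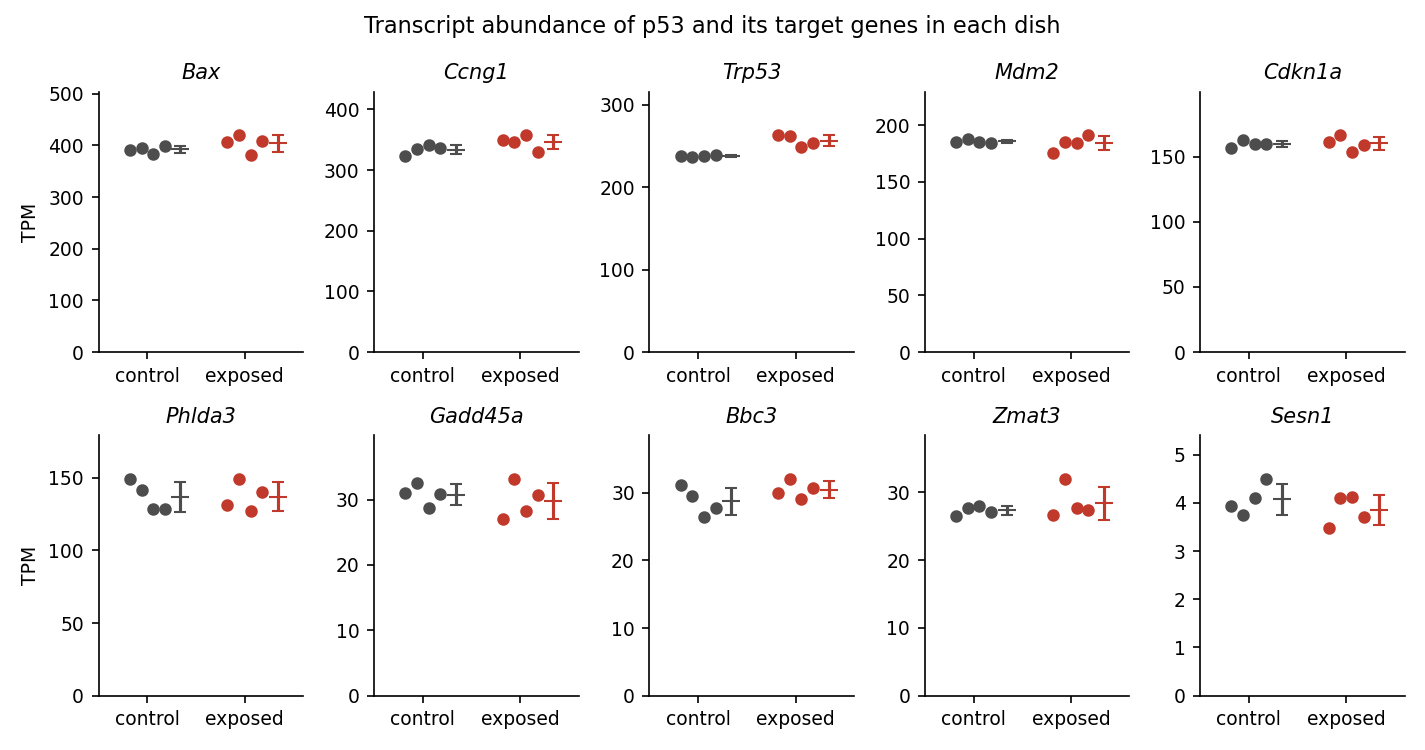
Level of each gene in TPM (vertical axes, each from 0) in the 4 control dishes (grey) and the 4 dishes exposed to Opti-ELF-WMF (red), replicates 1 to 4 from left to right, with the mean ± SD beside the points. Only the exposed points of Trp53, 248.37 to 262.68 TPM, all lie above the control points, which end at 238.69 TPM.

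Trp53 (ENSMUSG00000059552) encodes p53 and lies on chromosome 11, 69580359 to 69591873 on the plus strand of GRCm38. The control dishes had 237.77, 235.94, 238.19 and 238.69 TPM, and the exposed dishes 262.68, 261.44, 248.37 and 253.17 TPM. All 4 exposed dishes were above all 4 control dishes, with means of 237.6 ± 1.2 and 256.4 ± 6.83 TPM (SD, n = 4 culture dishes each). The difference in log2(TPM + 1) was 0.109 with an SE of 0.024 and a 95% confidence interval of 0.054 to 0.163. The limma model gave an unadjusted p of 0.00129 and an adjusted p = 0.122. The two-sided exact permutation test gave p = 0.0286, the smallest that 70 assignments of 8 dishes allow. Among the 12122 genes tested, 114 had a smaller p than Trp53, and 1383 (11.4%) were higher by more than it was. The control dishes of Trp53 lay close together, with a coefficient of variation of 0.504% against 2.66% in the exposed dishes. After rescaling the TPM without mitochondrial genes the difference was 0.079 (0.031 to 0.128), and upper-quartile scaling also gave 0.079 (0.007 to 0.151), but then the 2 conditions overlapped.

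Cdkn1a (ENSMUSG00000023067) encodes p21, the inhibitor of cyclin-dependent kinases through which p53 arrests the cell cycle, and lies on chromosome 17, 29090976 to 29100727, plus strand. Its level was 156.33, 162.61, 159.96 and 159.79 TPM in control and 161.04, 166.27, 153.71 and 159.23 TPM in exposed dishes. The exposed dishes spread on both sides of the control dishes, and the means of 159.7 ± 2.58 and 160.1 ± 5.18 TPM differed by less than the spread between dishes. The difference of 0.003 on the log2 scale had a 95% confidence interval of -0.061 to 0.067, that is, from 4.11% lower to 4.73% higher (adjusted p = 0.975). Its sign turned under each of the 3 other scalings. An unclassified transcript annotated on the opposite strand, AC167363.2, overlaps 273 of the 3553 exon bases and had at most 2.16 TPM.

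Mdm2 (ENSMUSG00000020184) encodes the ligase that degrades p53 and closes the feedback loop, and lies on chromosome 10, 117688875 to 117710758, minus strand. The control dishes had 184.79, 187.81, 185.43 and 184.54 TPM, and the exposed dishes 175.57, 185.31, 184.12 and 190.91 TPM. Exposed replicate 1 was the lowest of all 8 dishes and exposed replicate 4 the highest, so that the conditions overlapped fully. The means were 185.6 ± 1.49 and 184 ± 6.34 TPM, and the log2 difference was -0.014 with an interval of -0.076 to 0.049 (adjusted p = 0.864). Under the other scalings it was -0.044 to -0.036, with intervals that included 0.

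Ccng1 (ENSMUSG00000020326), on chromosome 11 from 40748552 to 40755311, minus strand, encodes cyclin G1, which recruits a phosphatase to Mdm2. It had 323.15, 334.34, 342.01 and 335.73 TPM in control and 349.64, 346.63, 357.32 and 330.2 TPM in exposed dishes. Only exposed replicate 4 fell within the control range. The log2 difference of 0.051 had an interval of -0.015 to 0.117 (adjusted p = 0.45), and under the other scalings it was 0.021 to 0.028. When each dish was left out in turn, it ranged from 0.035 without exposed replicate 3 to 0.073 without exposed replicate 4. The latter had unadjusted p = 0.0254 and adjusted p = 0.243.

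Bax and Bbc3 act in mitochondrial cell death. Bax (ENSMUSG00000003873), on chromosome 7 from 45461697 to 45466898, minus strand, encodes a protein that opens pores in the outer mitochondrial membrane. The control dishes had 391.65, 395.5, 384.03 and 399.02 TPM and the exposed dishes 406.15, 419.49, 381.68 and 409.4 TPM. Exposed replicate 3 was the lowest of the 8 dishes and the other 3 exposed dishes were above every control dish. The log2 difference was 0.041 with an interval of -0.027 to 0.110 (adjusted p = 0.566), and under the other scalings it was 0.011 to 0.019. Leaving out each dish in turn gave 0.023 (without exposed replicate 2) to 0.068 (without exposed replicate 3, unadjusted p = 0.0231, adjusted p = 0.282). Gm45808, a gene on the same strand, shares 192 of the 1576 exon bases of Bax and had at most 3.34 TPM. Bbc3 (ENSMUSG00000002083), on chromosome 7 from 16308393 to 16318205, plus strand, encodes PUMA, which frees BAX from its inhibitors. Its level was 31.15, 29.46, 26.48 and 27.8 TPM in control and 29.97, 32.06, 29.06 and 30.66 TPM in exposed dishes. The conditions overlapped, and the log2 difference of 0.083 had an interval of -0.036 to 0.201 (adjusted p = 0.499). Without control replicate 1, the highest control dish, it was 0.121 (unadjusted p = 0.0387, adjusted p = 0.305), and without control replicate 3, the lowest, it was 0.046.

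Gadd45a and Sesn1 are stress genes, the first acting in cell cycle arrest and repair and the second restraining mTORC1 and limiting peroxides. Gadd45a (ENSMUSG00000036390), on chromosome 6 from 67035096 to 67037457, minus strand, had 30.98, 32.53, 28.74 and 30.84 TPM in control and 26.97, 33.17, 28.19 and 30.69 TPM in exposed dishes. The lowest and the highest of the 8 dishes were both exposed. The log2 difference was -0.050, with an interval of -0.194 to 0.094 (adjusted p = 0.768). E230016M11Rik, annotated on the opposite strand over 337 of the 1764 exon bases of Gadd45a, had at most 1.23 TPM. Sesn1 (ENSMUSG00000038332), on chromosome 10 from 41809935 to 41908424, plus strand, had 3.94, 3.74, 4.11 and 4.5 TPM in control and 3.49, 4.11, 4.13 and 3.71 TPM in exposed dishes. The ranges overlapped, and the log2 difference of -0.062 had the widest interval of the 10 genes, -0.233 to 0.110 (adjusted p = 0.755). At this low level the added pseudocount of 1 TPM shrinks the difference.

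Phlda3 and Zmat3 are direct targets that restrain growth, Phlda3 as an inhibitor of AKT at the membrane and Zmat3 as an RNA-binding protein that affects splicing. Phlda3 (ENSMUSG00000041801), on chromosome 1 from 135766119 to 135769136, plus strand, had 148.99, 141.85, 128.56 and 128.48 TPM in control and 131.53, 149.34, 127.09 and 140.53 TPM in exposed dishes. Both conditions covered almost the same range, with a log2 difference of 0.002 and an interval of -0.136 to 0.140 (adjusted p = 0.995). The sign of this difference turned under each of the 3 other scalings. Zmat3 (ENSMUSG00000027663), on chromosome 3 from 32334792 to 32366014, minus strand, had 26.6, 27.74, 27.94 and 27.09 TPM in control and 26.63, 32.01, 27.66 and 27.42 TPM in exposed dishes. Exposed replicate 2 stood above the other 7 dishes, which lay between 26.6 and 27.94 TPM. The log2 difference was 0.051 with an interval of -0.072 to 0.174 (adjusted p = 0.713), under the other scalings it was 0.022 to 0.029, and without that dish it was -0.0053.

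**Figure D2:**
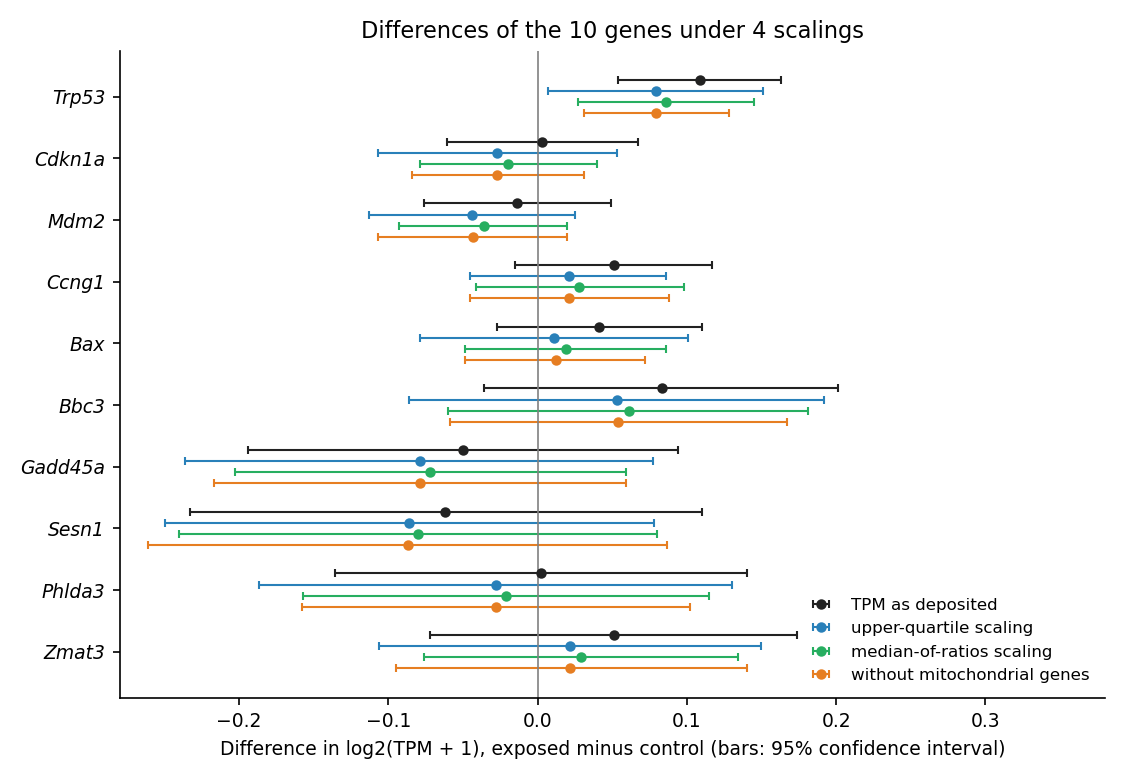
Difference in log2(TPM + 1), exposed minus control, for each of the 10 genes, with the TPM as deposited (black) and under 3 other scalings (colours). Points are limma estimates and bars 95% confidence intervals from 4 dishes per condition. The intervals of Trp53 lie above 0 under all 4 scalings, while those of the other 9 genes include 0.

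Of the 10 genes, 0 had a limma adjusted p under 0.05, as had 0% of the 12122 genes tested. At an unadjusted p under 0.05 there was 1 of 10 (Trp53, higher), beside 15.6% of all genes, of which 12.0% were higher and 3.65% lower. The conditions did not overlap for 1 of 10 genes, again Trp53, beside 8.01% of all genes with higher and 1.86% with lower values in exposed dishes. With the TPM as deposited, the share of p53 genes was therefore near the background in each count. Trp53 was also without overlap under median-of-ratios scaling, as were 555 of 12116 genes that were higher. The same held after rescaling without mitochondrial genes, beside 464 of 12210 genes. Upper-quartile scaling left 0 of the 10 genes without overlap, beside 319 of 12109 that were higher. The median log2 difference of the 10 genes was 0.022 and that of the 9 targets 0.003, with 0.026 over all genes tested. For the 9 targets the upper ends of the intervals, as percent changes of TPM + 1, were 4.73% for Cdkn1a, 3.46% for Mdm2, 8.47% for Ccng1, 7.91% for Bax, 15% for Bbc3, 6.74% for Gadd45a, 7.9% for Sesn1, 10.2% for Phlda3 and 12.9% for Zmat3. These bounds hold for the TPM as deposited. Under the other scalings the upper ends were lower, on the log2 scale 0.031 to 0.053 in place of 0.067 for Cdkn1a and 0.020 to 0.025 in place of 0.049 for Mdm2. A p above the threshold does not show that the levels were equal.

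The dishes of a condition did not move evenly. Exposed replicate 2 was the highest of its condition for 6 of the 10 genes and the lowest for 0. Its median deviation from the control means, on the log2 scale, was 0.101 for the 10 genes and 0.06 for all genes tested, and it had the lowest mitochondrial share (5.991%). The other 3 exposed dishes had medians of -0.0121, 0.00227 and 0.0219 for the 10 genes. Without exposed replicate 2, the Trp53 difference was 0.099 (unadjusted p = 0.00399, adjusted p = 0.247). The part of the mitochondrial share in the spread among exposed dishes was not tested. In such bulk RNA, a change in the RNA of every cell and a change in a fraction of the cells cannot be told apart.

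By the shape of their values over the 8 dishes, each scaled to unit SD, the genes most like Trp53 were Bysl, Utp6 and Capns1, with root mean square differences of 0.172, 0.191 and 0.197. All 3 were higher in exposed dishes, with mean levels of 23.1 and 25.85 TPM for Bysl, 58.88 and 66.6 TPM for Utp6, and 784.8 and 832.6 TPM for Capns1. The genes most like Cdkn1a were Tmem185a (0.146), Rem2 (0.181) and Gm19680 (0.198), of which Rem2 and Gm19680 had under 3 TPM. None of these 6 genes is a member of the p53 lists used here.

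A list of other known p53 targets held 42 genes, of which 37 were tested. Sfn, Rprm, Ptprv, Trp53cor1 and Sulf2 stayed below the abundance limit, with Rprm at 0 in all dishes and Ptprv reaching 1.29 TPM. None of the 37 had an adjusted p under 0.05. At an unadjusted p under 0.05, 6 were higher and 2 lower (21.6%, beside 15.6% of all genes), and the median log2 difference was 0.021, beside 0.026 over all genes. The conditions did not overlap for 5 of the 37, all higher, beside 8.01% of all genes with higher and 1.86% with lower values. At an unadjusted p under 0.05, upper-quartile scaling gave 2 higher and 4 lower, beside 481 and 695 of all 12109 genes tested. Median-of-ratios scaling gave 5 and 4, beside 822 and 668 of 12116. Rescaling without mitochondrial genes gave 3 and 5, beside 696 and 680 of 12210.

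In the arrest and feedback group, 10 of 14 genes were tested. At an unadjusted p under 0.05, 1 was higher and 1 lower (20%, beside 15.6% of all genes). Gtse1, which binds p53 in G2 and moves it out of the nucleus, had 84.26 to 86.92 TPM in control and 88.97 to 94.65 TPM in exposed dishes (log2 difference 0.083, adjusted p = 0.197). Plk3, a stress kinase, had 6.49 to 6.59 and 6.83 to 7.37 TPM (0.10, adjusted p = 0.367). Mdm4, the partner of Mdm2 that inhibits p53, had 43.85, 51.52, 57.65 and 51.38 TPM in control and 40.12, 44.41, 45.13 and 45.13 TPM in exposed dishes. Control replicate 1 of Mdm4 lay within the exposed range, and the log2 difference was -0.216 with an SE of 0.074 (unadjusted p = 0.0164, adjusted p = 0.21). Btg2, an antiproliferative gene, had 21.17 to 22.35 and 19.65 to 21.36 TPM (-0.085, adjusted p = 0.37).

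In the cell death group all 12 genes were tested. At an unadjusted p under 0.05, 3 were higher and 0 lower (25%, beside 15.6% of all genes). Aen, an exonuclease that digests DNA in apoptosis, had 152.48 to 156.34 TPM in control and 161.97 to 173.2 TPM in exposed dishes (0.113, adjusted p = 0.13). Bid, which links death receptors to mitochondria, had 114.7 to 120.31 and 122.28 to 127.65 TPM (0.096, adjusted p = 0.144). Neither overlapped between conditions. Pidd1, a scaffold of the caspase-2 complex, had 21.23 to 24.76 and 19.78 to 23.6 TPM (-0.133, adjusted p = 0.354), and Pmaip1, which encodes NOXA, had 35.11 to 41.76 and 33.36 to 37.03 TPM (-0.065, adjusted p = 0.64).

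In the group of repair, metabolism and secreted factors, 15 of 16 genes were tested. At an unadjusted p under 0.05, 2 were higher and 1 lower (20%, beside 15.6% of all genes). Tigar, a fructose bisphosphatase that lowers glycolysis, had 27.33 to 30.49 TPM in control and 31.97 to 33.19 TPM in exposed dishes, without overlap (0.156, adjusted p = 0.134). Polk, a polymerase that copies past damaged bases, had 17.12 to 18.41 and 17.55 to 21.05 TPM (0.140, adjusted p = 0.267). Ddb2, which recognises ultraviolet damage, had 12.53, 12.29, 11.45 and 9.94 TPM in control and 9.73, 10.71, 9.98 and 9.15 TPM in exposed dishes (-0.202, unadjusted p = 0.0243, adjusted p = 0.239). Ephx1, an epoxide hydrolase of the liver, had 180.15 to 199.82 and 173.38 to 190.88 TPM (-0.054, adjusted p = 0.548).

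Upstream of p53, 20 genes of DNA damage signalling were listed and all were tested. Of these, 0 passed the adjusted threshold, and 1 was higher and 1 lower at an unadjusted p under 0.05 (10%, beside 15.6% of all genes). Nbn, a subunit of the complex that senses double-strand breaks, had 12.21 to 12.84 TPM in control and 13.73 to 14.36 TPM in exposed dishes (0.149, adjusted p = 0.142), and Mre11a, the nuclease of the same complex, had 31.01 to 34.7 and 33.73 to 39.74 TPM (0.125, adjusted p = 0.327). Rad1, a subunit of the checkpoint clamp, had 26.44 to 28.33 and 24.12 to 26.5 TPM (-0.114, adjusted p = 0.221). Chek2, the kinase CHK2, had 24.75 to 28.22 and 23.79 to 26.39 TPM (-0.086, adjusted p = 0.463). The list median was 0.022.

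Of 18 regulators of p53, all were tested and 0 passed the adjusted threshold. At an unadjusted p under 0.05, 3 were higher and 0 lower (16.7%, beside 15.6% of all genes). Ep300 and Kat5, acetyltransferases that modify p53, had log2 differences of 0.150 (36.88 to 42.47 and 42.16 to 46.76 TPM, adjusted p = 0.226) and 0.137 (63.16 to 69.46 and 66.9 to 79.3 TPM, adjusted p = 0.248). Trp53bp1 (-0.111, adjusted p = 0.638) and Daxx (-0.027, adjusted p = 0.833) had the smallest p among those with lower values. The median was 0.040.

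The cell cycle genes that p21 is known to repress through the DREAM complex were listed because they should move against Cdkn1a when it is induced. The exposed dishes were sampled at 1 h only, and whether such repression could show by then was not tested. All 17 were tested and all 17 had fitted differences above 0, as had 63.7% of all genes, with a median of 0.055 beside 0.026. With each of the 3 other scalings 16 of 17 were above 0, as were 48.7% to 52.9% of all genes, with medians of 0.024, 0.032 and 0.025. At an unadjusted p under 0.05, 6 were higher and 0 lower (35.3%, beside 12.0% of all genes that were higher), and 0 passed the adjusted threshold. Upper-quartile scaling gave 1 of 17 higher, beside 481 of all 12109 genes tested. Median-of-ratios scaling gave 2 of 17, beside 822 of 12116, and rescaling without mitochondrial genes 1 of 17, beside 696 of 12210. Kif23, a kinesin of cytokinesis, had 172.71 to 182.9 TPM in control and 188.05 to 201.58 TPM in exposed dishes (0.127, adjusted p = 0.122), and Ccnb2, cyclin B2, had 128.24 to 133.55 and 136.1 to 137.72 TPM (0.070, adjusted p = 0.191). No list was tested as a set.

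**Figure D3:**
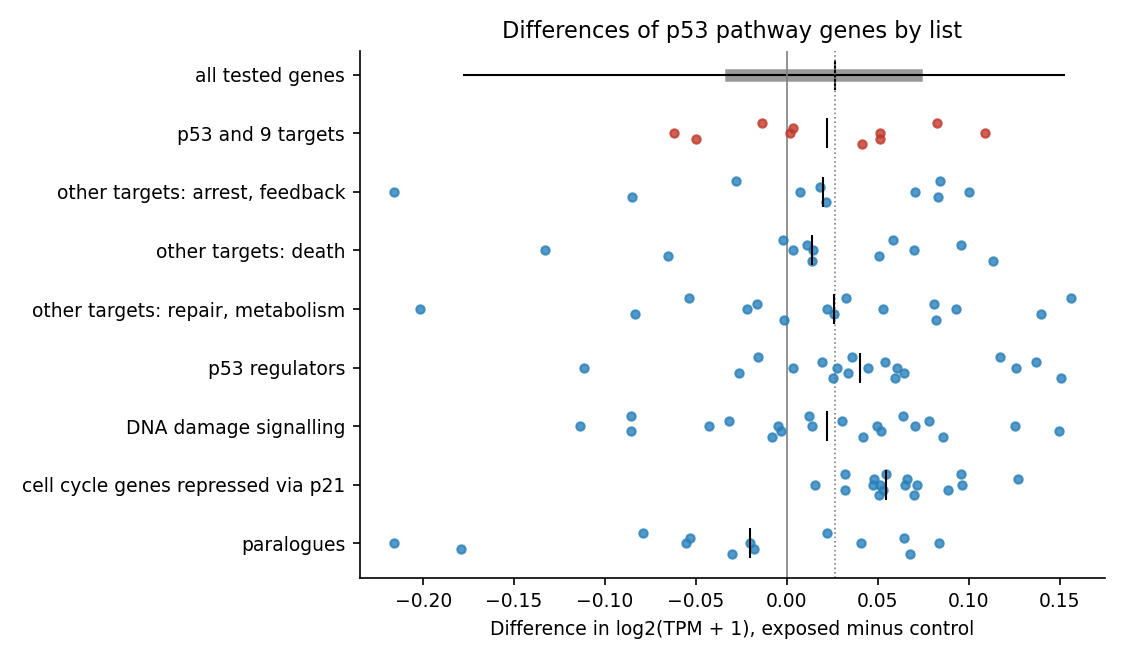
Difference in log2(TPM + 1), exposed minus control, of each tested gene in the p53 lists (points), with list medians as black ticks. The top line spans the 5th to 95th percentile of all 12122 tested genes (-0.178 to 0.153), the grey bar the 25th to 75th percentile (-0.031 to 0.071), and the dotted line is their median of 0.026. The 10 genes (red) lie within the line, and the 17 cell cycle genes lie between 0.015 and 0.127.

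Of 18 paralogues of the 10 genes, 13 were tested, and Trp63, Trp73, Cdkn1c, Zmat1 and Zmat4 were below the limit, with at most 0.05 TPM for the p53 relatives Trp63 and Trp73. None of the 13 passed the adjusted threshold, and at an unadjusted p under 0.05, 0 were higher and 2 lower (15.4%, beside 15.6% of all genes). The 2 lower paralogues were Mdm4, described above, and Gadd45b, with 45.67 to 46.44 TPM in control and 41.49 to 45.61 TPM in exposed dishes (log2 difference -0.079, adjusted p = 0.316). The median of the paralogues was -0.020.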

How the data were processed

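Per the labels and the study's methods, RNA from 8 culture dishes was made into libraries with a stranded mRNA kit and sequenced as paired reads. The submitters' processing notes name Trimmomatic 0.39, STAR 2.7.4a, RSEM 1.3.3 and the build mm10. The authors deposited 1 table of TPM values per dish for 55401 genes, with no counts used here. Whether counting used strand is not given in the sources used here.

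Genes that reached 1 TPM in 4 or more dishes (12122) were compared with limma 3.58.1 (lmFit, eBayes with a trend, two-sided) in R 4.3.3 on log2(TPM + 1), with Benjamini-Hochberg adjustment over all of them. Each of the 10 genes was also tested by exact permutation. The procedure was tested on simulated data. Positions came from GENCODE M21 on GRCm38, the assembly of mm10, and promoter sequences from RefSeq (GRCm38.p6). Figures were drawn with matplotlib 3.10.9. The labels do not say how dishes with the same replicate number are related, so p-values measure the spread between these dishes.

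The 10 genes, the lists and the tests were chosen with earlier results of these data known. Named genes were the 10 genes, the 2 with the smallest p in each direction of every list, the paralogues past an unadjusted p of 0.05, and the 3 genes most like Trp53 and Cdkn1a. The paralogues were to be given by count, and Mdm4 and Gadd45b are named because their count was below 5. Alternative settings changed the scaling, pseudocount, abundance filter and variance model, added a replicate block or left out each dish.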

Additional observations from a re-analysis of the deposited data

Results flagged for a closer look

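Among 66 groups of 4 dishes, 1 held a dish that stood apart by Dixon's test at the 95% level, and chance gives about 1 in 20, or 3.3 groups. Exposed replicate 1 had 40.12 TPM of Mdm4, the inhibitory partner of Mdm2, while the other 3 exposed dishes lay between 44.41 and 45.13 TPM.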

How the results depend on the processing

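None of the 10 genes reached an adjusted p under 0.05 under any alternative run, and Trp53 kept its direction and an unadjusted p of at most 0.0355, with adjusted p between 0.116 and 0.459. The exact permutation test of Trp53 (difference 0.11) gave p = 0.0286, under 0.05 but at the smallest value it allows and not adjusted. Leaving out each dish in turn gave 1 to 2 of the 10 genes at an unadjusted p under 0.05, 1 to 2 without overlap, 0 to 2 genes with an adjusted p under 0.05 among all tested and 1496 to 1963 with an unadjusted p under 0.05. Upper-quartile scaling left 0 of the 10 genes without overlap and gave 1176 genes with an unadjusted p under 0.05, in place of 1894, and its adjusted count was 1. The adjusted count over all genes was 2 with a pseudocount of 5 and 1 with each of TPM of at least 1 in every dish, rescaling without mitochondrial genes, median-of-ratios scaling and a robust prior, against 0. Of the genes with an unadjusted p under 0.05, 76.6% were higher in exposed dishes with the deposited TPM, 40.9% with upper-quartile scaling, 55.2% with median-of-ratios scaling and 50.6% without mitochondrial genes. The median difference of all genes was 0.0263, -0.0022, 0.00503 and -0.00179 in the same order. TPM above 0 in any dish as the filter tested 25413 genes.

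The difference of Cdkn1a turned to -0.027, -0.02 and -0.027 and that of Phlda3 to -0.028, -0.021 and -0.028 under the upper-quartile, median-of-ratios and mitochondria-free scalings. When each dish was left out, Cdkn1a ranged from -0.015 to 0.022, Mdm2 from -0.031 to 0.0086, Phlda3 from -0.04 to 0.043 and Zmat3 from -0.0053 to 0.08. The median of the 10 genes was -0.008 with upper-quartile scaling, -0.007 without mitochondrial genes and -0.010 without exposed replicate 2. The cause of these turns was not tested. For the 23 other genes named from the lists, all 391 recomputed differences kept their direction and their side of the adjusted threshold. The genes most like Trp53 and Cdkn1a were not recomputed. Dishes with the same replicate number did not deviate together (correlations of -0.0348, -0.0419, 0.000369 and 0.0258), and a replicate block gave 0 adjusted calls among all genes, 1 of the 10 genes with an unadjusted p under 0.05 and a Trp53 difference of 0.11 (adjusted p = 0.214). The count test planned for tables of counts was not run, because the values used are TPM. Depth is unknown, so its share in the error of any value cannot be given.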
